A study of Mus musculus with 8 samples.

Results

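The 10 genes described here handle the iron and haem that macrophages recover from old red cells: Spic, Slc40a1, Hmox1, Cd163, Slc11a1, Slc11a2, Tfrc, Fth1, Bach1 and Vcam1. They were chosen by gene symbol, as 10 of 18193 genes measured in mouse blood monocytes that had or had not taken up latex beads. A probe set was used when the annotation gave it exactly 1 symbol, and of the 21 probe sets found for the 10 genes, the one with the highest mean over all arrays stood for each gene. Spic and Slc40a1 were put on the list with their difference between bead-carrying and bead-free cells already known, so that difference is described for them without a test.

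The cells came from the blood of male C57BL/6 mice given fluorescent polystyrene beads of 1 µm into a vein. Sorting took place 4 days later and gave 4 groups with 2 arrays each: nonclassical monocytes, low in Gr1 and Ly-6C (Gr1lo), with beads and without beads, and classical monocytes, high in Gr1 and Ly-6C (Gr1hi), with beads and without beads. By that account cells without beads also came from mice that had received them, and no group came from mice given none. The series text places clodronate liposomes, which deplete phagocytes, 3 days before the beads for all mice. The treatment protocol instead gives them for the labelling of the classical cells and leaves them out for the nonclassical ones, so the subsets may also differ in pretreatment, and subset and pretreatment then cannot be told apart. The arrays are called biological replicates, but the number of mice or cells behind each is not given in the sources used here, and 2 arrays per group limit the precision of every value.

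Macrophages of spleen and liver engulf old erythrocytes, break haem down with haem oxygenase and return the iron to the plasma through ferroportin. Haem promotes the degradation of the repressor BACH1, which frees genes such as Spic and Hmox1 for transcription, and in mice Spic is needed for red pulp macrophages of the spleen. Circulating monocytes can give rise to such macrophages when red cell clearance is high.

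Levels are the deposited log2 expression values, in which 1 unit is a 2-fold difference. They compare 1 probe set between arrays and not different genes with each other. A level of 6.98 served as background; it is the 95th percentile of the means of 114 genes for smell, taste and pheromone receptors and hair proteins. Of the 10 genes, 8 averaged above it over the 8 arrays, and Cd163 and Vcam1 did not. The differences were tested with limma over all 18193 genes, and a gene was called at a Benjamini-Hochberg adjusted p under 0.05.

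The promoters of the 2 transcription factors among the members are shown because Spic was higher with beads and Bach1, its repressor, was not called. RefSeq (GRCm38.p6) windows were at hand for 6 of the 10 members, 8 windows in all, and the 250 bases before each listed start were searched on both strands. Slc40a1, Hmox1, Slc11a2 and Vcam1 had no window, so the counts below say nothing of them. The searched motifs were TGCTGA, the core that Maf and BACH1 proteins recognise, AGGAAG, the core bound by PU.1 and SPIC, and TGACNNNGC, the core of the antioxidant response element. Capitals mark the matches in the order of the gene's strand.
Spic, chr10:88683024-88683273, minus strand: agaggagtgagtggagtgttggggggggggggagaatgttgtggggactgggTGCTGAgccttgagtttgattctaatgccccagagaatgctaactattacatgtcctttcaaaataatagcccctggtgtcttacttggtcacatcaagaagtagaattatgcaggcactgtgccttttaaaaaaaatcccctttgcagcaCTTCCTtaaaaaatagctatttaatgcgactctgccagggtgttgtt
Bach1, chr16:87698704-87698953, plus strand: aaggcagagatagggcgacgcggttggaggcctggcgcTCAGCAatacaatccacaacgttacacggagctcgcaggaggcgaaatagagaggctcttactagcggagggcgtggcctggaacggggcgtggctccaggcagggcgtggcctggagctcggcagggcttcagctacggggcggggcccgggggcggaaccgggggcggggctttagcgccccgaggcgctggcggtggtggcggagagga
With the base before the start at position -1, the Spic window holds TGCTGA from -198 and, on the opposite strand, AGGAAG from -47. The Bach1 window holds TGCTGA on the opposite strand from -212. TGCTGA occurred in 2 of the 8 member windows and in 16.1% of 32851 windows of all genes. AGGAAG occurred in 5 of 8 windows, a count that includes Fth1 more than once, against 29.5% of all windows. TGACNNNGC occurred in 0 of 8, against 10.2%. These are matches of letters only.

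The sorted fractions carried the markers of their labels. Genes of all monocytes (6 of 6 measured, including Csf1r, Cd68 and Lyz2) averaged between 12.23 and 12.48 on all 8 arrays. Nonclassical markers such as Nr4a1, Spn and Treml4 (8 of 8 measured) averaged 11.77 to 11.95 in Gr1lo cells and 8.93 to 9.19 in Gr1hi cells. Classical markers (4 of 6 measured) averaged 8.77 and 8.62 in Gr1lo cells with beads, 10.90 and 10.57 in Gr1lo cells without, 12.63 and 12.66 in Gr1hi cells with beads, and at least 12.98 in Gr1hi cells without. The Gr1lo cells without beads thus held more classical marker RNA than the Gr1lo cells with beads. Dendritic cell markers (6 of 7 measured) averaged 8.50 and 8.45 in Gr1lo cells without beads, against 7.73 and 7.67 with. In Gr1hi cells they averaged 7.26 and 7.21 without beads, against 7.42 and 7.28 with. Of them Cd209a and Clec10a were called lower with beads in Gr1lo cells (-3.13 and -1.47). Flt3, Zbtb46, Xcr1 and Itgax were not called there. Neutrophil markers (8 of 10 measured) averaged 8.80 and 8.47 in Gr1hi cells with beads, against 9.47 and 9.14 without. In Gr1lo cells they averaged 6.53 and 6.67 with beads, against 6.74 and 6.44 without. Among bead-free cells Ltf, Camp and Ngp were called lower in Gr1lo than in Gr1hi cells (-1.31, -1.48 and -2.0), and Cxcr2 was not. Mmp8, Mmp9, S100a8 and S100a9 were called lower in Gr1lo cells in both bead states. In bulk RNA, fewer cells of a type and less RNA per cell cannot be told apart.

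The arrays of Gr1lo cells without beads differed from each other, and array 1 stood apart. Its tissue macrophage markers (11 of 12 measured) averaged 9.39, against 7.47 on array 2. The list averaged 8.76 and 8.44 in Gr1lo cells with beads, 8.19 and 8.25 in Gr1hi cells with beads, and 7.60 and 7.69 in Gr1hi cells without. Cd5l, a scavenger protein of resident macrophages, read 10.99 on array 1 and 6.19 on array 2, and the phosphatidylserine receptor gene Timd4 read 7.13 and 5.04. Timd4 was below background on the other 7 arrays. For some genes of the list array 2 was instead the lowest of all 8 arrays. These were Mertk (6.16, against 8.04 on array 1), Axl (7.92 against 8.81), C1qb (9.37 against 12.06) and C1qc (7.74 against 10.77). Siglec1 was lower on array 1 than on array 2 (7.04 against 7.36). Bacterial poly-A transcripts, which are added to RNA before labelling, also moved with bead state and with subset over their 27 control probe sets. They were higher with beads in each subset, and higher in Gr1lo than in Gr1hi cells in each bead state. They averaged 9.69 and 9.71 in Gr1lo cells with beads, against 8.64 and 8.13 without, and 8.82 and 9.17 in Gr1hi cells with beads, against 7.30 and 7.63 without. The part of these measures, and of the marker lists above, in the results that follow was not tested. Values given without an array address that array alone. They do not address the poly-A, classical, dendritic or neutrophil marker differences, which were seen on both arrays of the groups compared.

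**Figure D1:**
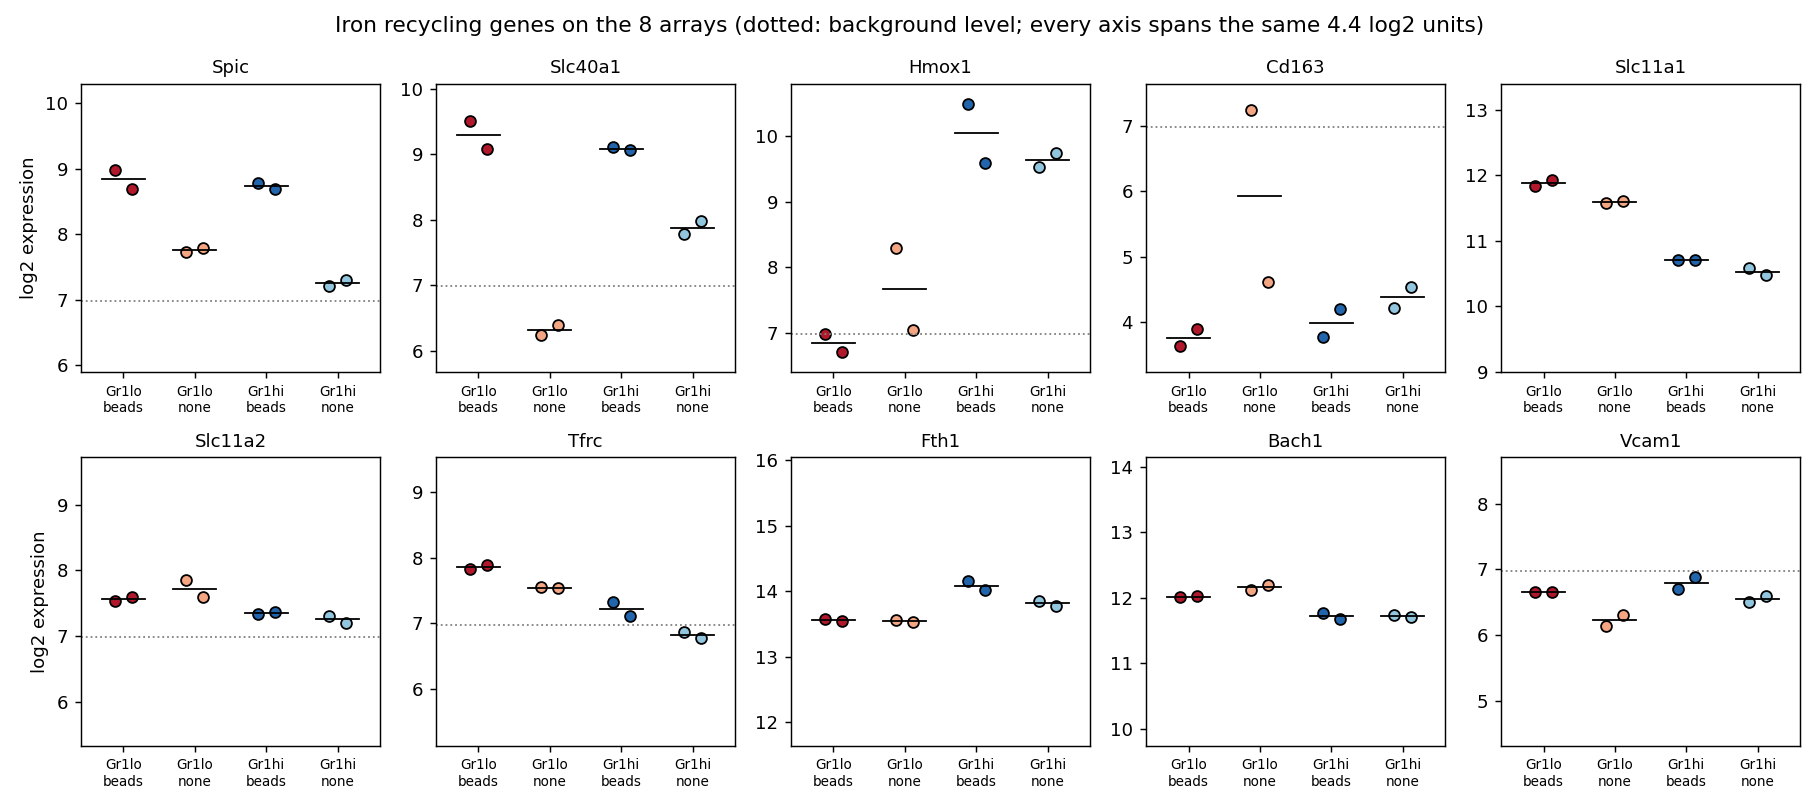
Log2 expression of the 10 iron recycling genes on each of the 8 arrays (points), with group means as lines and the background level dotted; every axis spans the same number of log2 units. Spic and Slc40a1 are high on all 4 arrays of bead-carrying cells, Hmox1 is low in Gr1lo cells, Slc11a1 is high in Gr1lo cells, and Cd163 is high on 1 array only.

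Spic, a transcription factor of the Ets family that drives the iron-recycling macrophage programme (chr10:88675269-88683023, GRCm38.p6), was higher in the bead-carrying cells of both subsets. It read 8.98 and 8.70 in Gr1lo cells with beads, against 7.73 and 7.79 in Gr1lo cells without. In Gr1hi cells it read 8.78 and 8.69 with beads, against 7.22 and 7.31 without. All 4 arrays with beads lay above all 4 arrays without, and all 8 lay above background. The differences were 1.08 ± 0.11 (SE) in Gr1lo cells, a 2.11-fold higher level, and 1.47 ± 0.11 in Gr1hi cells, a 2.77-fold higher level.

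The order of the group means was Gr1lo with beads (8.84 ± 0.20, SD, n = 2), Gr1hi with beads (8.74 ± 0.06), Gr1lo without (7.76 ± 0.04) and Gr1hi without (7.27 ± 0.07). The first and second overlapped: between the bead-carrying subsets Spic differed by 0.10 ± 0.11 (limma adjusted p = 0.557). Among bead-free cells it was higher in Gr1lo than in Gr1hi cells, by 0.49 ± 0.11 (limma adjusted p = 0.0114). This call was lost without array 1 of the bead-free Gr1hi cells (0.45, limma adjusted p = 0.0758) and without array 2 of the bead-free Gr1lo cells (0.46, adjusted p = 0.0515). The probe set standing for Spic may also bind related transcripts by its design. The second Spic probe set, of a kind that can be shared by several transcripts, had the same order with wider gaps. It read 9.22 and 8.60 in Gr1lo cells with beads, against 7.24 and 7.23 without, and 8.68 and 8.57 in Gr1hi cells with beads, against 6.16 and 6.27 without. On it the Gr1lo level without beads exceeded the Gr1hi level by 1.02 ± 0.17 (limma adjusted p = 0.00345 over all probe sets). Between the bead-carrying subsets it differed by 0.29 ± 0.17 (adjusted p = 0.286). The bead-free Gr1hi cells averaged 6.22 on this probe set, below background, so its gaps against them include values under background.

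Bach1, the haem-sensing repressor of Hmox1 and Spic, showed no called difference with beads. It read 12.01 and 12.02 in Gr1lo cells with beads, against 12.12 and 12.20 without, and 11.76 and 11.68 in Gr1hi cells with beads, against 11.73 and 11.71 without. The bead differences were -0.14 ± 0.08 (limma adjusted p = 0.476) in Gr1lo cells and 0.00 ± 0.08 (adjusted p = 0.994) in Gr1hi cells. Bach1 was higher in Gr1lo than in Gr1hi cells, by 0.30 ± 0.08 with beads (limma adjusted p = 0.0262) and by 0.44 ± 0.08 without (adjusted p = 0.00484). The call with beads was lost when any array of bead-carrying cells was left out (0.26 to 0.33, limma adjusted p 0.0735 to 0.148), and that without beads was kept in 15 of 15 alternative settings. The second Bach1 probe set, below background on average, lay between 6.21 and 7.36 and was also higher in Gr1lo cells, by 0.69 with beads (limma adjusted p = 0.0208 over all probe sets) and 0.38 without (adjusted p = 0.177). These levels are of RNA and say nothing of the BACH1 protein, on which haem acts.

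Slc40a1 encodes ferroportin, the exporter through which iron leaves a macrophage (chr1:45908070-45926532, GRCm38.p6). It read 9.51 and 9.08 in Gr1lo cells with beads, against 6.24 and 6.39 in Gr1lo cells without (below background). In Gr1hi cells it read 9.11 and 9.06 with beads, against 7.78 and 7.98 without. The measured differences were 2.98 ± 0.14 (SE) in Gr1lo cells and 1.20 ± 0.14 in Gr1hi cells, a 2.30-fold higher level. With bead-free Gr1lo cells set at the background level instead of their own value, the level in Gr1lo cells was at least 5.0-fold higher with beads. The measured bead difference in Gr1lo cells exceeded that in Gr1hi cells by 1.78 ± 0.20, or by at least 1.12 with the background level in place of the lower values.

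Among bead-free cells Slc40a1 was lower in Gr1lo than in Gr1hi cells, by 1.56 log2 units (-1.56 ± 0.14, limma adjusted p = 0.000152, at least 1.87-fold against the background level), a call kept in 15 of 15 alternative settings. Between the bead-carrying subsets, at 9.30 ± 0.30 in Gr1lo and 9.08 ± 0.04 in Gr1hi cells (SD, n = 2 each), it differed by 0.21 ± 0.14 (limma adjusted p = 0.332) and the arrays overlapped. The second Slc40a1 probe set read 8.10 and 7.64 in Gr1lo cells with beads, against 5.56 and 5.66 without, and 8.01 and 7.78 in Gr1hi cells with beads, against 6.70 and 6.97 without. On it the subsets differed by -0.02 ± 0.16 with beads (limma adjusted p = 0.944 over all probe sets) and by -1.23 ± 0.16 without (adjusted p = 0.000954). The bead-free values of this probe set were below background in both subsets, so differences that involve them give no fold of the transcript. A p that misses the threshold does not show equal levels.

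These differences were about as large without the array that stood apart. Without array 1 of the bead-free Gr1lo cells the bead difference in Gr1lo cells was 2.90 for Slc40a1 and 1.05 for Spic, and without array 2 it was 3.06 and 1.11. The erythroid markers (8 of 12 measured) averaged 6.43 and 6.59 in Gr1lo cells with beads, against 6.42 and 6.52 without, and 6.52 and 6.45 in Gr1hi cells with beads, against 6.61 and 6.55 without. Slc4a1, Klf1, Epb42, Tal1 and Hba-a1 were below background on all 8 arrays, Epor lay between 7.11 and 7.49, and Alas2 between 6.87 and 8.17. With beads Alas2 differed by 0.17 in Gr1lo and 0.33 in Gr1hi cells, neither called, and it was higher in Gr1lo than in Gr1hi cells by 0.64 with beads (limma adjusted p = 0.0243) and 0.79 without (adjusted p = 0.0106). The part of these markers in the subset differences was not tested. The haemoglobin gene Hba-a2 fell with beads in Gr1hi cells, by 0.83 log2 units (-0.83, limma adjusted p = 0.0306), and its difference in Gr1lo cells was -0.38 (adjusted p = 0.230).

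**Figure D2:**
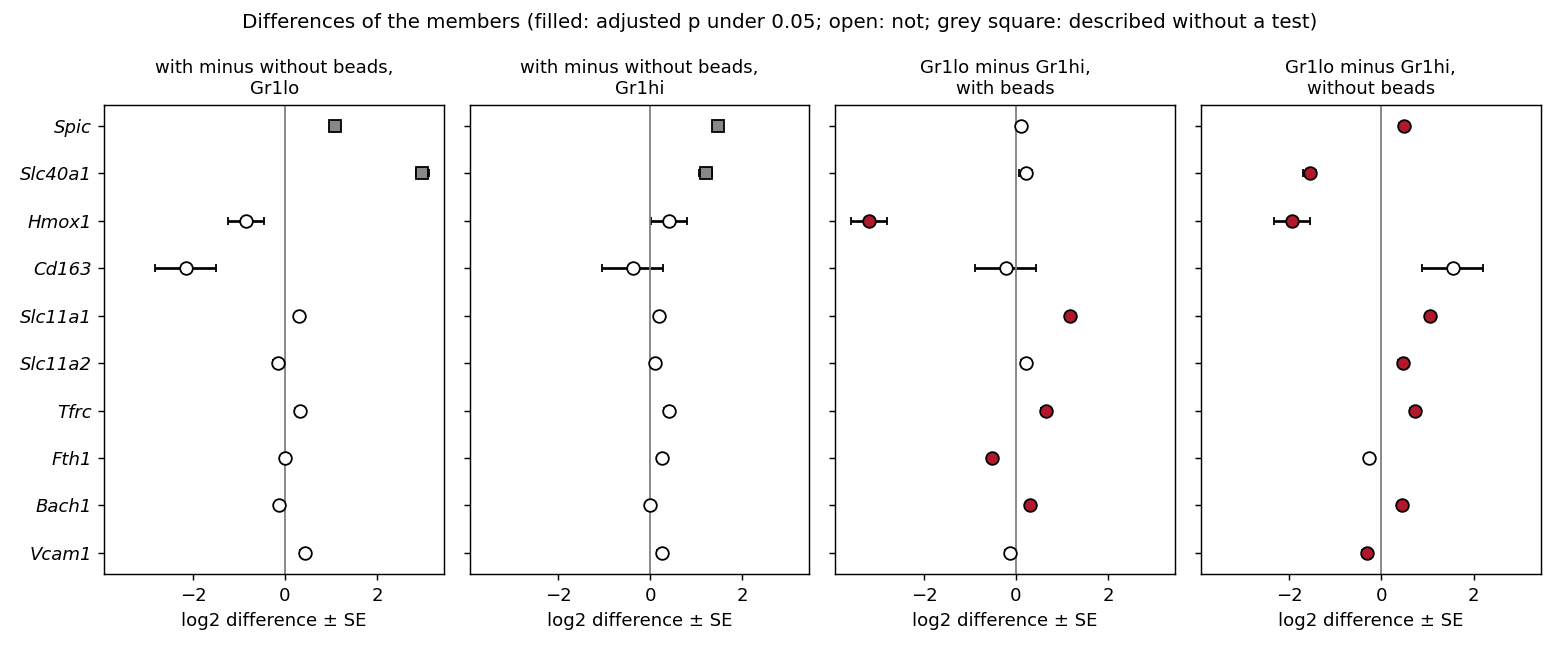
Log2 differences (points) with their standard errors (bars) for the 10 genes, beads against none in each subset on the left and Gr1lo against Gr1hi cells on the right. Filled points passed an adjusted p under 0.05, open points did not, and grey squares are values described without a test; no filled point stands in the bead panels, against 5 with beads and 8 without beads in the subset panels.

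The 8 members other than Spic and Slc40a1 gave 0 calls with beads in Gr1lo cells and 0 in Gr1hi cells. Of all genes, 0.225% were called in Gr1lo cells and 0.247% in Gr1hi cells. At an unadjusted limma p under 0.05 there were 4 of the 8 in Gr1lo cells (13.2% of all genes) and 3 in Gr1hi cells (9.93%). Groups that did not overlap were found for 6 of 8 in Gr1lo cells (42.7% of all genes) and 6 of 8 in Gr1hi cells (44.2%). The median difference of the 8 was -0.07 in Gr1lo cells, against 0.02 over all genes, and 0.21 in Gr1hi cells, against -0.02. The difference between the subsets in the bead difference gave 0 calls among the 8 (0.044% of all genes), and 0 of the 8 had an unadjusted limma p under 0.05, against 7.84% of all genes.

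Hmox1, the inducible haem oxygenase that opens the haem ring and releases its iron, showed no called difference with beads. It read 6.98 and 6.71 in Gr1lo cells with beads, against 8.30 and 7.05 without, and 10.50 and 9.59 in Gr1hi cells with beads, against 9.53 and 9.74 without. The bead differences were -0.84 ± 0.39 in Gr1lo cells (limma adjusted p = 0.408) and 0.41 ± 0.39 in Gr1hi cells (adjusted p = 0.794), neither called. The Gr1lo array with the high value, 8.30, was the one that stood apart in macrophage markers, and without it the Gr1lo bead difference was -0.21 (limma adjusted p = 0.913).

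Between the subsets Hmox1 had the largest difference of the 10 genes in either bead state, also with the background level in place of lower values. All Gr1lo arrays lay below all Gr1hi arrays. The level was lower in Gr1lo cells by 3.20 log2 units with beads (-3.20 ± 0.39, limma adjusted p = 0.000496). Gr1lo cells with beads averaged below background, so that the difference was at least 8.38-fold against the background level. Without beads it was lower by 1.95 (-1.95 ± 0.39, 3.88-fold, adjusted p = 0.00769). That second call held without the array that stood apart (-2.58, limma adjusted p = 0.000947) and without its partner (-1.33, adjusted p = 0.0239), but was lost without array 2 of the bead-free Gr1hi cells (-1.85, adjusted p = 0.051) and with trended robust moderation (-1.95, adjusted p = 0.0678). Bead-carrying Gr1lo cells therefore combined Slc40a1 at 9.30 ± 0.30 with Hmox1 at 6.84 ± 0.19, and bead-carrying Gr1hi cells combined Slc40a1 at 9.08 ± 0.04 with Hmox1 at 10.04 ± 0.65 (SD, n = 2 each).

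Cd163, the receptor for haemoglobin bound to haptoglobin on tissue macrophages, was below background on 7 of 8 arrays. It read 3.64 and 3.89 in Gr1lo cells with beads, against 7.24 and 4.61 without, and 3.78 and 4.20 in Gr1hi cells with beads, against 4.22 and 4.54 without. The single high value came from the array that stood apart. The Gr1lo bead difference was -2.16 ± 0.66 and was not called (limma adjusted p = 0.254). It was -0.85 (limma adjusted p = 0.333) without that array and -3.48 (adjusted p = 7.48e-05) without the other array of the group. The subset difference without beads was 1.55 ± 0.66 (limma adjusted p = 0.134), 0.23 (adjusted p = 0.542) without the first array and 2.86 (adjusted p = 7.68e-05) without the second. The difference between the subsets in the bead difference, -1.77 ± 0.93 (limma adjusted p = 0.690), was -3.08 (adjusted p = 0.00115) without that second array. One array thus decided every Cd163 difference that involved bead-free Gr1lo cells.

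**Figure D3:**
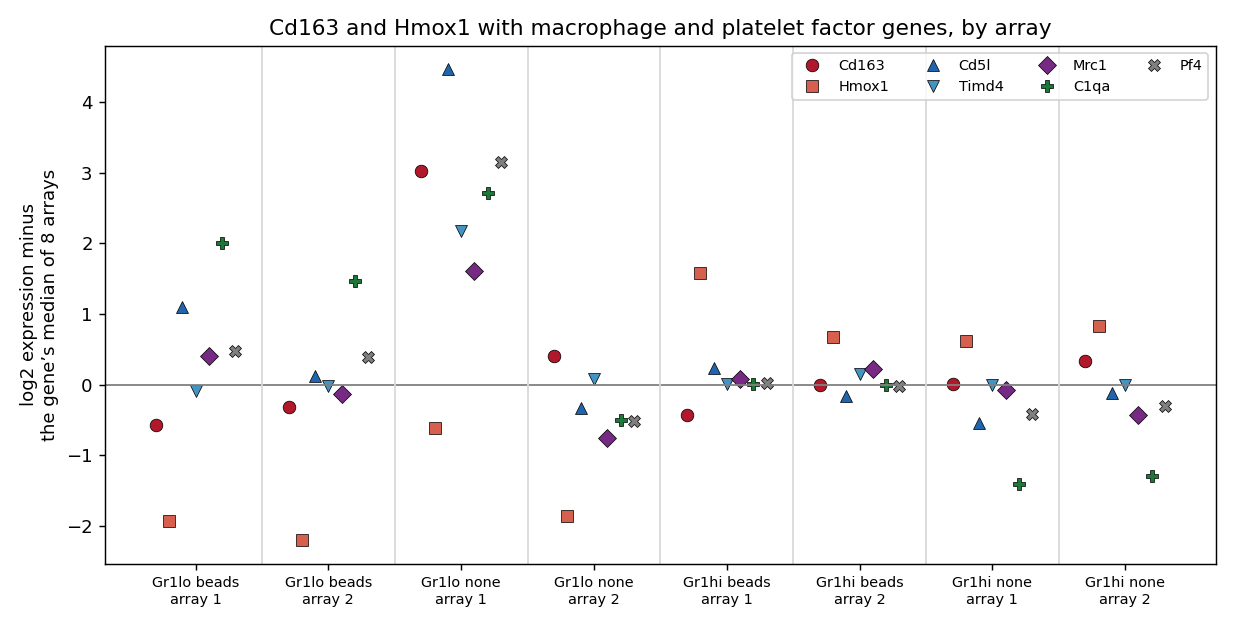
Log2 expression of Cd163 and Hmox1 with macrophage genes (Cd5l, Timd4, Mrc1, C1qa) and the platelet factor gene Pf4 on each array, each minus the gene's own median over the 8 arrays. Array 1 of the Gr1lo cells without beads carries high values of Cd163, Cd5l (10.99), Timd4 (7.13), Mrc1 (9.46), C1qa (11.37) and Pf4 (11.36), and array 2 of the same group does not. C1qa was also high in Gr1lo cells with beads (10.66 and 10.13). The other platelet markers (Ppbp, Itga2b, Gp9, Gp1bb and Treml1) were not higher on array 1 than on array 2.

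Slc11a1 (Nramp1) pumps iron and manganese out of the phagosome and was the member that separated the subsets with the smallest p. It read 11.84 and 11.92 in Gr1lo cells with beads, 11.57 and 11.60 in Gr1lo cells without, 10.70 and 10.70 in Gr1hi cells with beads, and 10.58 and 10.47 in Gr1hi cells without. It was higher in Gr1lo cells by 1.18 ± 0.08 with beads, a 2.27-fold difference (limma adjusted p = 2.94e-05), and by 1.06 ± 0.08 without, 2.09-fold (adjusted p = 6.18e-05). Both calls were kept in 15 of 15 alternative settings. The arrays with beads lay above those without in each subset, by 0.30 ± 0.08 in Gr1lo cells (limma adjusted p = 0.225) and 0.18 ± 0.08 in Gr1hi cells (adjusted p = 0.528), and neither was called.

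Slc11a2 (DMT1), the divalent metal transporter that carries iron out of endosomes, differed little. It read 7.53 and 7.60 in Gr1lo cells with beads, 7.85 and 7.59 in Gr1lo cells without, 7.34 and 7.37 in Gr1hi cells with beads, and 7.31 and 7.20 in Gr1hi cells without. Without beads it was higher in Gr1lo cells by 0.46 ± 0.10 (limma adjusted p = 0.0128). With beads the difference was 0.21 ± 0.10 (adjusted p = 0.180). The call was lost without array 1 of the bead-free Gr1lo cells (0.33, limma adjusted p = 0.0648) and without array 2 of the bead-free Gr1hi cells (0.41, adjusted p = 0.0853). The 3 other Slc11a2 probe sets, which lay between 3.52 and 7.40, did not share this pattern. One differed by 0.38 with beads (limma adjusted p = 0.0105 over all probe sets) and 0.09 without, a second by -0.35 with beads (adjusted p = 0.0179) and 0.14 without, and the third by 0.15 and -0.22. The direction between the subsets thus depended on the probe set.

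Tfrc encodes the transferrin receptor, which brings plasma iron into the cell. It read 7.83 and 7.89 in Gr1lo cells with beads, 7.55 and 7.53 in Gr1lo cells without, 7.32 and 7.11 in Gr1hi cells with beads, and 6.86 and 6.77 in Gr1hi cells without, the last pair below background. It was higher in Gr1lo cells by 0.65 ± 0.10 with beads (limma adjusted p = 0.00127) and 0.72 ± 0.10 without (adjusted p = 0.000966). Arrays with beads lay above those without, by 0.32 ± 0.10 in Gr1lo cells (limma adjusted p = 0.243) and 0.40 ± 0.10 in Gr1hi cells (adjusted p = 0.212), without a call. The 2 other Tfrc probe sets were below background on all arrays and differed between subsets by -0.07 to 0.20. The Tfrc calls rest on 1 of 3 probe sets, and averaged over all 3 the difference was 0.26 with beads (limma adjusted p = 0.0383) and 0.22 without (adjusted p = 0.0779). Tfrc is also a gene of dividing cells. Cycling markers (5 of 6 measured) averaged 6.50 and 6.21 in Gr1lo cells with beads, and 7.23 and 6.08 in Gr1lo cells without. In Gr1hi cells they averaged 7.98 and 8.20 with beads, and 7.67 and 7.72 without. The part of these markers in the Tfrc values, between subsets or with beads, was not tested.

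Fth1, the ferritin heavy chain that oxidises iron for storage in the ferritin shell, lay between 13.53 and 14.15 on all 8 arrays. It read 13.58 and 13.54 in Gr1lo cells with beads, 13.56 and 13.53 in Gr1lo cells without, 14.15 and 14.01 in Gr1hi cells with beads, and 13.85 and 13.78 in Gr1hi cells without. It was lower in Gr1lo cells by 0.52 with beads (-0.52 ± 0.09, limma adjusted p = 0.00239). Without beads the difference was -0.27 ± 0.09, just outside the threshold (adjusted p = 0.0513). The second Fth1 probe set was lower in Gr1lo cells in both states, at -0.39 with beads (limma adjusted p = 0.00978 over all probe sets) and -0.48 without (adjusted p = 0.00408). With beads the main probe set differed by 0.01 ± 0.09 in Gr1lo cells (limma adjusted p = 0.965) and by 0.26 ± 0.09 in Gr1hi cells (adjusted p = 0.365). On the second probe set the bead difference was 0.26 ± 0.08 in Gr1lo cells (limma adjusted p = 0.298 over all probe sets). In Gr1hi cells it was 0.16 ± 0.08 (adjusted p = 0.596). Which subset had the larger bead difference thus depended on the probe set, and none was called.

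Vcam1, an adhesion molecule of endothelium and of red pulp macrophages, gave different answers by probe set. The probe set with the highest mean read 6.66 and 6.65 in Gr1lo cells with beads, 6.14 and 6.31 in Gr1lo cells without, 6.70 and 6.88 in Gr1hi cells with beads, and 6.50 and 6.59 in Gr1hi cells without, all below background. Its bead differences were 0.43 ± 0.10 in Gr1lo cells (limma adjusted p = 0.157) and 0.24 ± 0.10 in Gr1hi cells (adjusted p = 0.471). Between subsets it was lower in Gr1lo cells without beads (-0.32 ± 0.10, limma adjusted p = 0.0471), a call kept in 3 of 14 alternative settings, and differed by -0.13 ± 0.10 with beads (adjusted p = 0.395).

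A second Vcam1 probe set read 7.01 and 6.27 in Gr1lo cells with beads, against 3.83 and 3.65 without, and 4.99 and 5.09 in Gr1hi cells with beads, against 3.59 and 3.63 without. All 4 arrays with beads lay above all 4 without, and 1 of the 8 values exceeded the background level. Its differences with beads were called, at 2.90 ± 0.20 in Gr1lo cells (limma adjusted p = 0.00089 over all probe sets) and 1.43 ± 0.20 in Gr1hi cells (adjusted p = 0.0395). All 4 group means lay below background, so these differences give no fold of the transcript. With all probe sets tested, 0.143% were called in Gr1lo cells and 0.195% in Gr1hi cells. The third Vcam1 probe set differed by 0.16 in Gr1lo and 0.19 in Gr1hi cells, with limma adjusted p of 0.563 and 0.614 over all probe sets. The endothelial and stromal markers (5 of 5 measured) averaged 6.36 and 6.41 in Gr1lo cells with beads, against 6.01 and 6.23 without, and 5.75 and 5.67 in Gr1hi cells with beads, against 5.78 and 5.77 without. Of them, Cdh5, Col1a1 and Col3a1 were below background on all 8 arrays and Kdr lay between 7.26 and 7.74. Pecam1, an adhesion gene also of leukocytes, read 8.71 and 8.86 in Gr1lo cells with beads, against 7.90 and 8.18 without (limma adjusted p = 0.174), and was below background in Gr1hi cells. The part of these markers in the Vcam1 values was not tested. Averaged over its 3 probe sets, Vcam1 rose by 1.16 with beads in Gr1lo cells (limma adjusted p = 0.00717). So averaged, its subset difference with beads was 0.47 (adjusted p = 0.0151), opposite in sign to that of the main probe set.

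**Figure D4:**
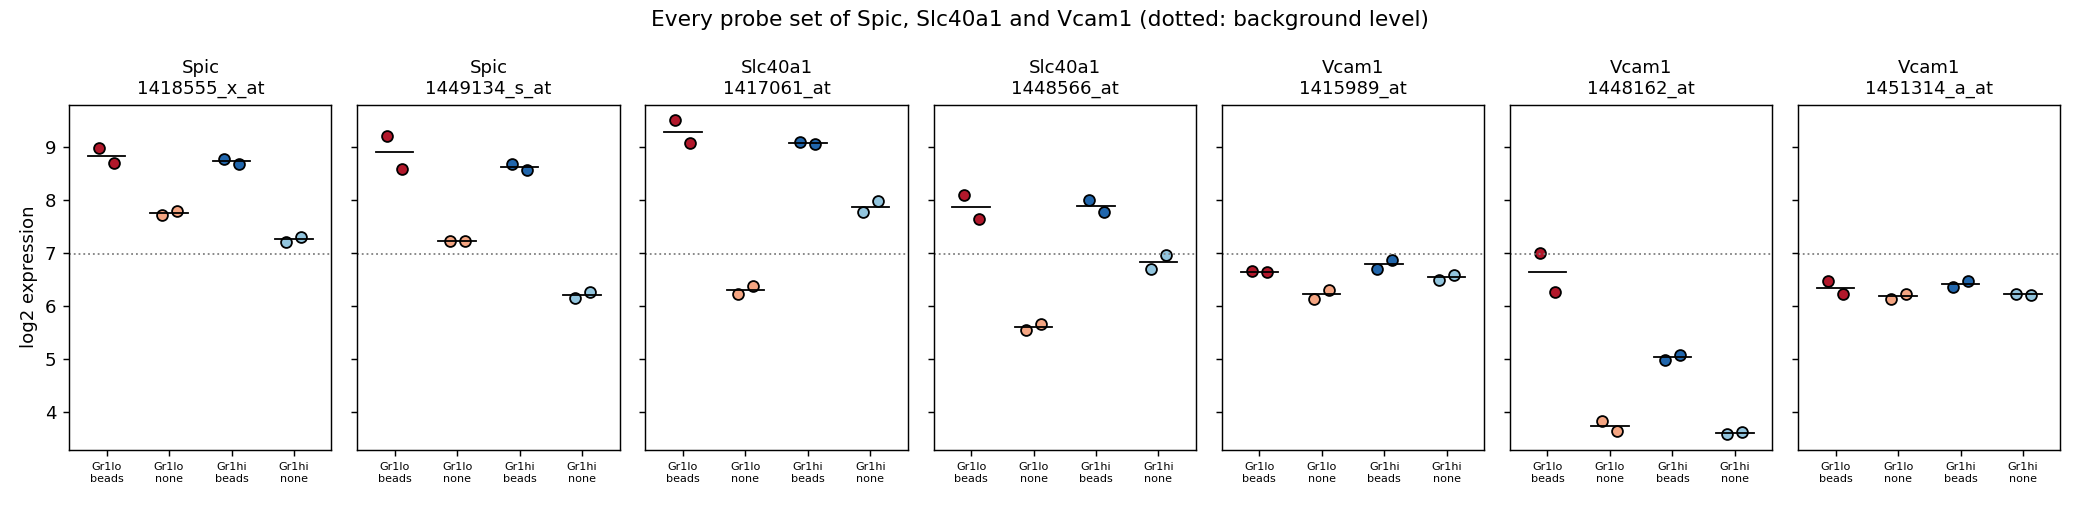
Log2 expression by array (points) and group mean (lines) for each probe set of Spic, Slc40a1 and Vcam1, with the background level dotted. Both probe sets of Spic and of Slc40a1 are higher with beads in both subsets, while of 3 Vcam1 probe sets the one with the lowest overall mean holds the wide gap (7.01 and 6.27 in Gr1lo cells with beads).

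Taking the subsets as the comparison, 5 of 10 members were called with beads (3 higher in Gr1lo cells, 2 lower) and 8 of 10 without (5 higher, 3 lower). Of all genes, 26.5% were called with beads (11.8% higher, 14.6% lower) and 23.6% without (10% higher, 13.6% lower). The higher ones with beads were Slc11a1, Tfrc and Bach1 and the lower ones Hmox1 and Fth1. Without beads Spic and Slc11a2 joined the higher group, and the lower ones were Slc40a1, Hmox1 and Vcam1. Groups that did not overlap were found for 7 of 10 with beads (61.4% of all genes) and 10 of 10 without (62.0%). The median difference was 0.16 with beads, against -0.03 over all genes, and 0.45 without, against -0.07. All these comparisons share arrays, since each group enters a bead and a subset comparison.

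Of 38 other genes of iron and haem handling, 36 were measured and 26 averaged above background. With beads 1 of 36 was called in each subset, beside 0.225% of all genes in Gr1lo and 0.247% in Gr1hi cells. In Gr1lo cells Hp, the haemoglobin-binding haptoglobin, fell by 0.74 log2 units (-0.74 ± 0.11, limma adjusted p = 0.0495), at 11.17 and 11.41 with beads against 11.94 and 12.12 without. In Gr1hi cells Ncoa4, the receptor that delivers ferritin to the lysosome, rose by 0.55 ± 0.08 (limma adjusted p = 0.0489), at 11.16 and 11.20 with beads against 10.62 and 10.63 without. Each of these calls was kept in 6 of 15 alternative settings and lost when most single arrays were left out. In Gr1hi cells, leaving out 1 array of the compared groups lost all or most bead calls over all genes. A call lost in those settings therefore says little of Ncoa4 itself. Over all settings the differences were -0.86 to -0.62 for Hp and 0.53 to 0.59 for Ncoa4. The median difference of the 36 was 0.04 in Gr1lo cells and -0.04 in Gr1hi cells, against 0.02 and -0.02 over all genes. The antioxidant regulator Nfe2l2 differed by 0.13 in Gr1lo and 0.35 in Gr1hi cells and was not called.

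Between the subsets 14 of 36 were called with beads (5 higher in Gr1lo cells, 9 lower) and 12 without (3 higher, 9 lower), beside 26.5% and 23.6% of all genes. The median of the 36 was -0.13 with beads and -0.15 without. Hfe, whose product binds the transferrin receptor, had the widest gap. It read 12.72 and 12.79 in Gr1lo cells with beads and 12.49 and 12.77 in Gr1lo cells without, against 10.25 and 10.21 in Gr1hi cells with beads and 9.89 and 9.98 in Gr1hi cells without. Its differences were 2.53 ± 0.11 with beads (limma adjusted p = 2.84e-06) and 2.69 ± 0.11 without (adjusted p = 2.21e-06).

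The mitochondrial iron importers were higher in Gr1lo cells: Slc25a37 by 0.69 with beads and 0.45 without, and Slc25a28 by 0.40 and 0.48. Of 9 measured genes of uptake and transport, 3 were called higher and 0 lower in either bead state, beside 11.8% of all genes called higher with beads and 10% without (26.5% and 23.6% in either direction). Of 4 measured genes of iron storage and chaperones, 3 were lower in Gr1lo cells in both states, beside 14.6% of all genes called lower with beads and 13.6% without. These were Ncoa4 (-1.03 with beads and -0.55 without) and the iron chaperones Pcbp1 (-0.52 and -0.38) and Pcbp2 (-0.43 and -0.40, or -0.16 and -0.18 without a call when its probe sets were averaged). Fth1, a member and not in that count, was lower in Gr1lo than in Gr1hi cells among bead-carrying cells, as given above.

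Haem handling genes had 4 of 12 called with beads and 5 of 12 without, all of them lower in Gr1lo cells, beside 14.6% and 13.6% of all genes. Hp was lower in Gr1lo than in Gr1hi cells by 1.65 with beads (-1.65, limma adjusted p = 2.15e-05) and by 1.24 without (-1.24, adjusted p = 0.000124). Blvra, the biliverdin reductase that acts after haem oxygenase, differed by -0.65 and -0.60, and the constitutive haem oxygenase gene Hmox2 by -0.32 in both states. The haem transporter gene Slc48a1 was lower in Gr1lo than in Gr1hi cells among bead-carrying cells (-0.42). Fech, which inserts iron into haem, and Hpx, the plasma haem binder, were lower in Gr1lo cells among bead-free cells (-0.25 and -0.37). Hpx was below background. Among 8 sensing genes, Keap1, the inhibitor of Nfe2l2, was lower in both states (-0.33 and -0.66, or -0.04 and -0.26 without a call when its probe sets were averaged). Among bead-carrying cells Aco1, an iron regulatory protein, was lower in Gr1lo than in Gr1hi cells (-0.50). Maff, a small Maf partner of BACH1, was higher in Gr1lo than in Gr1hi cells among them (0.45), and averaged 6.74 over all arrays, below background. Of 3 export partners, all below background, the ferroxidase gene Cp was higher in Gr1lo than in Gr1hi cells with beads (0.77, limma adjusted p = 0.00951). The hepcidin gene Hamp and Heph were not called. The calls of Fech and Hpx without beads and of Hmox2 in both states, all with adjusted p over 0.03, were lost in 6 to 10 alternative settings. Those of Pcbp2 were lost in 5 of 15 settings with beads and in 10 of 15 without, and that of Keap1 with beads in 5 of 15.

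**Figure D5:**
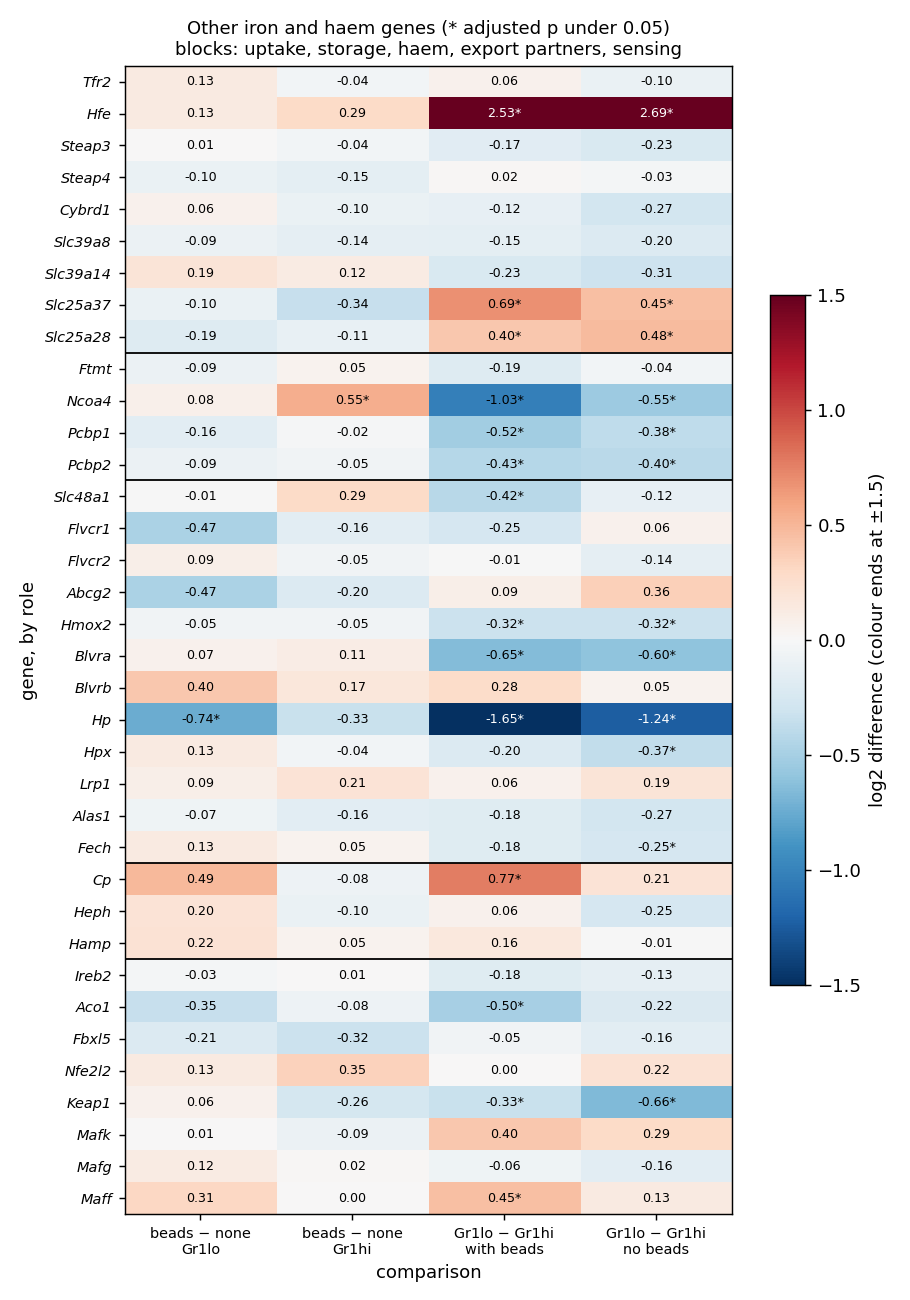
Log2 differences of the 36 other measured iron and haem genes in 4 comparisons, coloured by size and direction and grouped by role; a star marks an adjusted p under 0.05. Stars are sparse in the bead columns (Hp in Gr1lo and Ncoa4 in Gr1hi cells) and more frequent in the subset columns (14 with beads and 12 without), where storage and haem genes are mostly lower in Gr1lo cells.

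The genes whose pattern over the 8 arrays was most like each member are named from 8780 others above background, by Pearson's r, as a description. The 8 points share 4 groups, so subset or bead differences shape every r. For Spic these were Id3 (r = 0.954), Slc26a11 (0.944) and Gm26910 (0.924). For Slc40a1 they were Omg (0.956), Atxn7l2 (0.942) and Zmynd8 (0.939), whose group means spanned far less than those of Slc40a1. For Hmox1 they were Ero1b (0.993), Nus1 (0.992) and Ap2s1 (0.989), and for Slc11a1 Vamp5 (0.996), Cd9 (0.995) and Gm2a (0.994). Tfrc was followed by Gpr137b (0.989), Ankrd12 (0.984) and Pparg (0.981). For Cd163 the nearest were Selp (0.978), Retnla (0.957) and Alox15 (0.943). Their highest group means were in the Gr1lo cells without beads, at 8.73, 10.83 and 8.73. In that group Cd163 itself read 7.24 on the array that stood apart and 4.61, below background, on its partner. That single high value weighs heavily in each r for Cd163, so these r do not show a pattern shared by the group. They were not recomputed without that array. Id3 averaged 9.41 and 8.41 in Gr1lo cells with and without beads, and 9.08 and 8.23 in Gr1hi cells with and without. Among the members themselves, Spic and Slc40a1 correlated at r = 0.73 over the 8 arrays, Slc11a1 and Hmox1 at -0.94, Slc11a1 and Tfrc at 0.95, and Slc40a1 and Hmox1 at 0.11.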

How the data were processed

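The deposited table gives log2 expression of 45101 probe sets on 8 Affymetrix mouse GeneChip arrays, which the authors normalised by RMA per the submitters' processing notes, which also name limma. Tool versions were not stated there. The values were used as deposited.

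Members and gene lists were chosen with earlier results of these data known. Probe sets with 1 symbol numbered 34945; 932 with several, 9160 with none and 64 controls (3 of them for Tfrc) were left out. Of those kept, 34741 matched GRCm38.p6 RefSeq records by Entrez number and 0 changed symbol. The probe set of highest mean stood for each of 18193 genes, and 8788 genes averaged above background. Array medians lay between 6.12 and 6.19, and 8615 to 8865 genes per array were above background. Arrays of 1 group correlated at 0.9935 to 0.9963 and those of the 2 subsets with each other at 0.9714 to 0.9776.

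Models with 4 group means over all 8 arrays were fitted with limma 3.58.1 in R 4.3.3 (residual degrees of freedom 4, prior 4.48), two-sided, with Benjamini-Hochberg adjustment over all genes. SE is limma's moderated standard error, and SD is between arrays. The fit was tested on simulated data. The text names all members with their other probe sets, each other iron or haem gene called in any comparison, the gene of highest mean in each role group, and 3 genes most like each member whose group means spanned at least 1 log2 unit. A few marker genes (Cd5l, Timd4, Mrc1, C1qa, Pf4, Hba-a2) were picked after their values were seen. Alternatives were the mean of all probe sets, genes above background only, the compared arrays alone, trended robust moderation, each array left out in turn, cyclic loess, and a block for the replicate number. A block within each subset was added after seeing the data. Python 3.11.15, pandas 2.3.3 and matplotlib 3.10.9 made tables and figures.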

Additional observations from a re-analysis of the deposited data

Results flagged for a closer look

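For Slc40a1 the bead difference in Gr1lo cells was larger than that in Gr1hi cells, by 1.78 ± 0.20 log2 units. It drew attention as a difference between the subsets, and since Slc40a1 was chosen with it known, it is a description without a test. The bead-free Gr1lo cells averaged 6.32, below background, and with the background level in place of such values the excess was at least 1.12. The other Slc40a1 probe set gave 1.21 ± 0.23, but its bead-free means were below background in both subsets (5.61 in Gr1lo and 6.84 in Gr1hi cells). With the background level in their place, its bead-carrying means (7.87 in Gr1lo and 7.89 in Gr1hi cells) leave no excess.

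The Vcam1 probe set with the lowest mean, which does not stand for the gene, differed with beads by 2.90 in Gr1lo cells (7.01 and 6.27 with beads, 3.83 and 3.65 without) and by 1.43 in Gr1hi cells (4.99 and 5.09 with beads, 3.59 and 3.63 without). It drew attention as a signal outside the main measurement, above the level in the bead-free cells. All 4 of its group means were below the background level. Its difference between subsets in the bead difference was 1.47 ± 0.28 (limma adjusted p = 0.394 over all probe sets), so the 2 subsets were not shown to differ. Why the 3 Vcam1 probe sets disagree was not tested.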

How the results depend on the processing

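Over 14 alternative settings and 1 more chosen after seeing the data, the 46 tested results of single genes gave 672 values, of which 620 kept their side of the threshold (12 of them with a changed sign, uncalled in both settings), 42 lost a call, 9 gained one and 1 reversed. The reversal was the Vcam1 difference between subsets with beads, 0.47 with the mean of all probe sets. That setting also gave Spic bead differences of 1.94 in Gr1hi and 1.38 in Gr1lo cells (-0.56 between subsets), Slc40a1 2.62 in Gr1lo cells (1.49 between subsets), and 1 member called with beads in Gr1lo cells, Vcam1. Leaving out 1 array at a time, the Spic bead difference ranged from 0.94 to 1.22 in Gr1lo and from 1.42 to 1.52 in Gr1hi cells (-0.53 to -0.25 between subsets), and that of Slc40a1 from 2.77 to 3.20 and from 1.11 to 1.30 (1.56 to 1.99 between subsets). Members called then ranged from 0 to 1 with beads in Gr1lo cells, 0 to 0 in Gr1hi cells, 0 to 1 for the difference between subsets, 4 to 5 between subsets with beads and 5 to 8 without, the low value without array 2 of Gr1hi cells without beads. Calls with beads over all genes moved too when an array was left out. In Gr1hi cells none or few remained without an array of the compared groups. In Gr1lo cells they rose most without array 2 of the bead-free group. The member counts with beads in those settings therefore say little of the members. The labels number replicates 1 and 2 without saying that a number pairs samples. Deviations of same-numbered arrays correlated at 0.601 in Gr1hi and 0.367 in Gr1lo cells and at 0.036 to 0.09 across subsets, over 8788 genes. With the replicate number as a block, members called were 0 and 0 with beads, 0 for the difference between subsets, 5 between subsets with beads and 9 without, Fth1 being gained (adjusted p = 0.0391). All genes called with beads were 54 in Gr1lo and 56 in Gr1hi cells with the block, 106 and 102 with the block within each subset, and 41 and 45 without a block. The compared arrays alone could not be used for the difference between subsets, which needs all 8 arrays. Leaving out genes below background removed Cd163 and Vcam1. With 2 arrays per group, precision is limited, and levels below 6.98 carry little signal over background.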
